A study of Homo sapiens with 6 samples.

Results

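Expression of 10 genes for secreted signals was followed in SW1990, an established cell line derived from a human pancreatic ductal adenocarcinoma: the chemokines CXCL1, CXCL2, CXCL3, CXCL5, CXCL8, CXCL16 and CCL20, and the interleukin-6 (IL-6) family cytokines IL6, IL11 and LIF. They were taken by gene symbol from the 58735 genes of the read count table, and each symbol matched 1 gene. RNA sequencing was done on 6 libraries: 3 of control cells, labelled untreated but given an equal volume of the solvent DMSO in the treatment protocol, and 3 of cells treated with 5 µM EPZ-5676. EPZ-5676 (pinometostat) is an inhibitor of DOT1L, the enzyme that methylates histone H3 at lysine 79 (H3K79) in the bodies of transcribed genes. The sources used here do not state the length of treatment, and no label says whether the 3 libraries of a group came from separate cultures, so p-values measure the spread between these libraries alone.

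Chemokines are small secreted proteins that draw leukocytes along a gradient through G protein-coupled receptors. CXCL1, CXCL2, CXCL3, CXCL5 and CXCL8 carry the ELR tripeptide, lie together on chromosome 4, and attract neutrophils through CXCR1 and CXCR2. IL-6, IL-11 and LIF each bind a receptor that is joined by gp130, the product of IL6ST, which activates JAK kinases and STAT3. Tumour cells and fibroblasts of pancreatic carcinoma are known sources of both groups. Transcription of several of these genes is driven by NF-κB, AP-1 and C/EBP factors, and many of their mRNAs are short-lived because of AU-rich elements in the 3′ UTR.

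The promoters of CXCL1, CXCL2 and CXCL3 are shown first, with those of CXCL8 and IL11, because these genes differed widely in level, from 0 reads in every library upward, while their promoter sequences are in part nearly the same. Each line gives the 150 bases before the transcription start, read 5′ to 3′ on the gene's own strand, from RefSeq on GRCh38.p14. For CXCL2, CXCL3 and CXCL8 the RefSeq start lies inside the gene coordinates given further below, so their windows reach into those coordinates. Capitals mark matches to the NF-κB motif GGANTTTCC or the AP-1 motif TGANTCA, searched on both strands.
CXCL1, chr4:73869243-73869392, plus strand: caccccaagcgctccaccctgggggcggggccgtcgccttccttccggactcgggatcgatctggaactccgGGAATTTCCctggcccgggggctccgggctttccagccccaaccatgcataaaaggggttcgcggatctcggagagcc
CXCL2, chr4:74099196-74099345, minus strand: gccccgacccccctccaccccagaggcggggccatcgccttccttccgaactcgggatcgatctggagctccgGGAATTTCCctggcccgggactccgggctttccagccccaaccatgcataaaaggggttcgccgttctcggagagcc
CXCL3, chr4:74038690-74038839, minus strand: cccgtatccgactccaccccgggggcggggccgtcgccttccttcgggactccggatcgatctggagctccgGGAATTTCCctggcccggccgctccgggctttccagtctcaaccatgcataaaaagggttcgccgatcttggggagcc
CXCL8, chr4:73740419-73740568, plus strand: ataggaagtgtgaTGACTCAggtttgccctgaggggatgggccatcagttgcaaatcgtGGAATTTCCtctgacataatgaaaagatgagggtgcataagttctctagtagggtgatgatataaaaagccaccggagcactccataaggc
IL11, chr19:55370464-55370613, minus strand: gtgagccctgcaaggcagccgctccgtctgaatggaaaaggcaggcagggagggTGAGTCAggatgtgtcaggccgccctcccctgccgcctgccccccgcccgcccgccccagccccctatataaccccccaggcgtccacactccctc

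In these windows CXCL1 was 88.7% identical to CXCL2 and 88.1% identical to CXCL3, and CXCL2 was 86.1% identical to CXCL3. The CXCL8 window was 43.6% to 47.3% identical to those of CXCL1, CXCL2 and CXCL3. The IL11 window, from another chromosome, was 47.8% to 48.5% identical to them, so CXCL8 was no nearer to them than IL11. The NF-κB motif was searched in the 250 bases before the start, for which the RefSeq table held 8 of the 10 genes, all but CXCL16 and LIF. It was present in 6 of these 8 (CXCL1, CXCL2, CXCL3, CXCL5, CXCL8 and IL6) and in 1.47% of all 27305 promoters of that length. The AP-1 motif was present in 2 of 8 (CXCL8 and IL11) and in 6.60% of promoters. The STAT motif TTCNNNGAA was present in 1 of 8, CXCL5, where it overlapped the NF-κB match, and in 6.78% of promoters. The NF-κB matches of CXCL1, CXCL2 and CXCL3 lie in sequences that are nearly the same, so they are not separate observations. The shares were not compared by a test. All these matches are letters in a window and are no measure of binding.

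AU-rich stretches are given because 8 of the 10 mRNAs held at least 5 ATTTA pentamers in the 3′ UTR. They are the longest runs of overlapping ATTTA pentamers (capitals) in the 3′ UTR of 4 of the genes, on the mRNA strand, written as DNA.
CXCL1: agtcttctATTTATTTATTTAttcattag
CXCL2: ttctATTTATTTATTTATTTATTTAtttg
CXCL8: ttatttatgtATTTATTTAagcatcaaat
IL11: cagatcttATTTATTTATTTAtttcagta

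The run was 13 bases in CXCL1, 21 in CXCL2, 9 in CXCL8 and 13 in IL11. The nonamer TTATTTATT was found in the 3′ UTR of 6 of the 10 genes (CXCL1, CXCL2, CXCL3, CXCL8, IL11 and LIF) and in 8.04% of 17670 genes whose 3′ UTR is at least 100 bases in GENCODE 29. ATTTA occurred at least 5 times in 8 of the 10 genes, against 27% of those genes, a share that was not adjusted for UTR length. The exceptions were CXCL16, with 1 pentamer, and CCL20, with 3. Per kilobase of 3′ UTR, IL6 (13.99 pentamers), CXCL2 (13.87) and CXCL3 (10.4) held the most, and LIF (2.19) and CXCL16 (1.02) the fewest, with IL11 at 5.56 and CXCL5 at 5.51.

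Libraries held 33970420 to 39749648 counted reads. Levels are given as CPM (counts scaled to a common library size, with TMM), or as RPKM (CPM per kilobase of gene length) where genes are compared with each other. Differences are log2 fold changes, treated over control, with their standard error (SE) from the quasi-likelihood test of edgeR, adjusted after Benjamini and Hochberg over all 15496 genes that passed the filter on low counts, at a threshold of 0.05. Of those genes, 15% were called higher and 18.7% lower with the inhibitor, and the change followed base composition: the median log2 fold change of all genes was -0.05, but -0.58 in the lowest GC decile and 0.43 in the highest (deciles are 10 equal groups of genes ordered by transcript GC content). In the lowest decile 763 genes were called lower and 4 higher, and in the highest decile 769 were called higher and 6 lower. The results for the tested genes are therefore also given after a per-library correction for transcript GC content and length, which left 5.4% of genes called higher and 5.57% lower. Control 2 stood apart in leukocyte genes: it had 153 reads of PTPRC (CD45), 45 of CXCR2 and 12 of CXCR1, against 0 to 8 reads of PTPRC and 0 of both receptors in the other 5 libraries. Defining epithelial markers of a ductal line were mixed, with KRT8 at 2658 and 3430 CPM in control and treated cells, but CDH1 and CEACAM6 had 0 reads in all 6 libraries.

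Of the 10 genes, 7 passed the low-count filter, and 3 of them were called higher with EPZ-5676 (IL11, CXCL16 and CXCL3) and 0 lower, beside 15% and 18.7% of all tested genes. After the GC and length correction 4 were higher (CXCL8 in addition) and 0 lower, beside 5.4% and 5.57%. With 7 genes these counts are small and describe these members alone. In the same 3 genes every treated library lay above every control, which was so for 21.8% of all tested genes, and in 0 of 7 every treated library lay below, which was so for 24.2%. The median log2 fold change of the 7 was 0.11 as tested and 0.45 after the GC and length correction, against -0.05 and -0.0044 for all genes tested. CXCL2 and IL6 passed the filter in 5 of 6 libraries and the other 5 genes in all 6. CXCL1, CXCL5 and CCL20 did not pass and enter no count of calls.

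**Figure D1:**
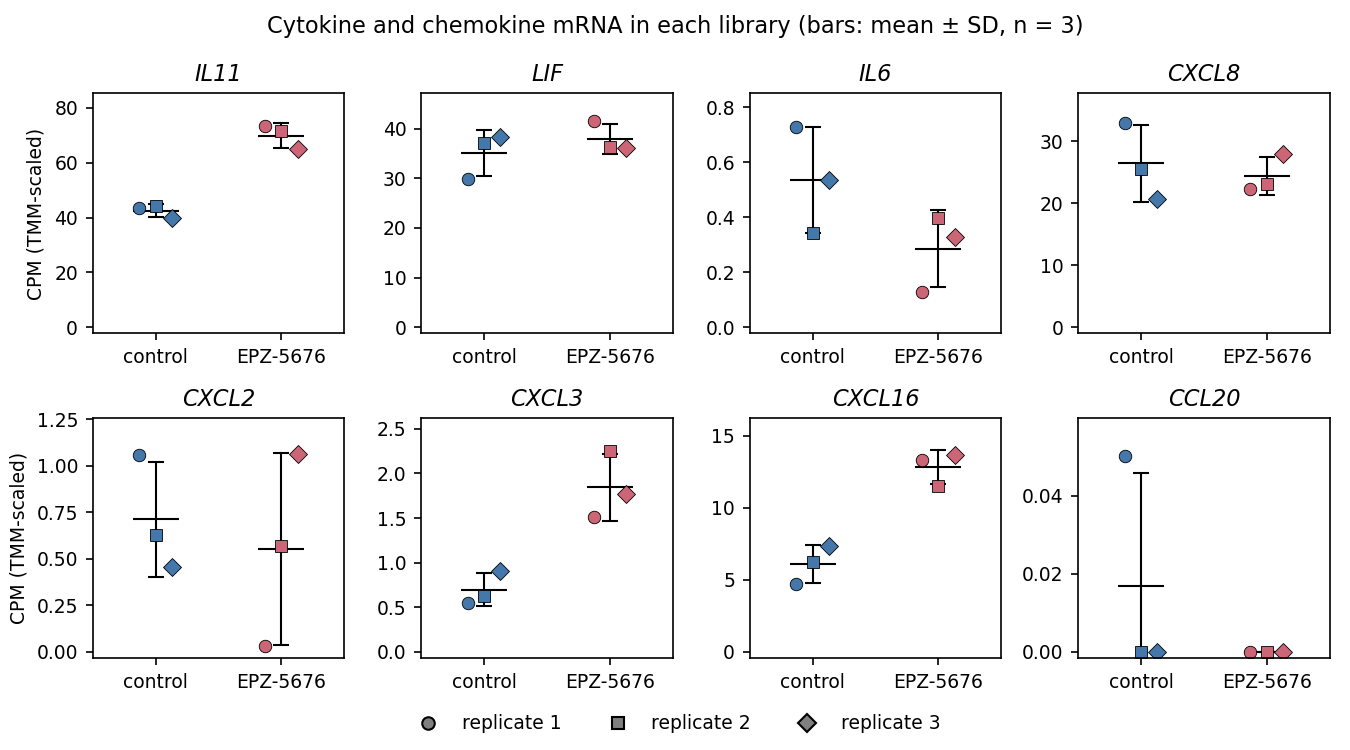
Level in CPM of 8 of the genes in each of the 6 libraries (points), with the mean and SD of each group of 3. IL11, CXCL16 and CXCL3 have all treated libraries above all controls, and the groups overlap for LIF, CXCL8, CXCL2 and IL6; CCL20 had 2 reads in 1 control.

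IL11 (ENSG00000095752, chr19:55364389-55370463, minus strand, GRCh38) encodes interleukin-11, which signals through IL11RA and gp130 and is known from fibrosis and epithelial tumours. Levels were 43.5, 44.1 and 39.9 CPM in the controls against 73.3, 71.7 and 64.9 CPM in the treated libraries. Even the lowest treated library was well above the highest control. The mean moved from 42.5 ± 2.30 to 69.9 ± 4.47 CPM (SD, n = 3 each), which is 1.65-fold. The edgeR log2 fold change was 0.72 ± 0.11 (SE, 95% interval 0.49 to 0.94), with an edgeR adjusted p of 0.000133. By p, IL11 ranked 153 of the 15496 tested genes. After the correction its log2 fold change was 0.50 ± 0.09, with an edgeR adjusted p of 0.000788. In its GC decile, where the median log2 fold change was 0.26, IL11 was at the 90.8th percentile.

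LIF (ENSG00000128342, chr22:30240447-30246851, minus strand), leukaemia inhibitory factor, signals through LIFR and gp130. In the controls the level was 29.8, 37.0 and 38.3 CPM, and in the treated libraries 41.5, 36.2 and 36.1 CPM. The groups overlapped, with treated libraries 2 and 3 below controls 2 and 3. The log2 fold change was 0.11 ± 0.13 (95% interval -0.15 to 0.38, edgeR adjusted p = 0.530), so no change was detectable within that interval with 3 libraries a group. After the correction it was -0.13 ± 0.10 (edgeR adjusted p = 0.456), so the sign of the difference turned while neither value passed the threshold.

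IL6 (ENSG00000136244, chr7:22725884-22732002, plus strand), the founding cytokine of the family and an inducer of acute-phase proteins, was scarce. It had 29, 12 and 20 reads in the controls and 4, 14 and 13 in the treated libraries, or 0.536 ± 0.193 and 0.285 ± 0.140 CPM (SD, n = 3 each). The groups overlapped, and the treated values were spread from 0.129 to 0.399 CPM. The log2 fold change was -0.89 ± 0.70 (95% interval -2.35 to 0.57, edgeR adjusted p = 0.349), and -0.57 ± 0.69 after the correction (edgeR adjusted p = 0.682). An antisense gene, AC073072.1, shares 428 exon bases with IL6 and had 5 to 18 reads per library. The sources used here do not state the strand setting of the counting, so reads of this pair could not be assigned with certainty.

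CXCL8 (ENSG00000169429, chr4:73740506-73743716, plus strand), interleukin-8, is the ELR chemokine that binds both CXCR1 and CXCR2 strongly. Control libraries held 33.0, 25.6 and 20.7 CPM and treated libraries 22.2, 23.0 and 27.9 CPM. The widest spread was among the controls, and the treated libraries lay within their range. Its log2 fold change was -0.11 ± 0.16 (95% interval -0.45 to 0.22, edgeR adjusted p = 0.621). CXCL8 has a transcript GC content of 33.4%, in the lowest decile, whose median log2 fold change was -0.58, and within that decile it stood at the 88.5th percentile. After the correction its log2 fold change was 0.45 ± 0.14 with an edgeR adjusted p of 0.0348, a turn of sign and a call that the uncorrected test did not give. That call was lost when control 3 (adjusted p = 0.193), treated library 1 (0.100) or treated library 3 (0.195) was left out.

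CXCL3 (ENSG00000163734, chr4:74036589-74038807, minus strand), a CXCR2 ligand, was low but rose. It had 22, 22 and 34 reads in the controls and 47, 79 and 70 in the treated libraries, so every treated library exceeded every control. The levels were 0.698 ± 0.189 and 1.84 ± 0.375 CPM (SD, n = 3 each), a fold of 2.64. The log2 fold change was 1.40 ± 0.41 (95% interval 0.54 to 2.26, edgeR adjusted p = 0.0132), and 1.40 ± 0.41 after the correction (edgeR adjusted p = 0.0289). CXCL3 has a GC content of 50.5%, in a decile whose median log2 fold change was 0.02, and it stood at that decile's 99.0th percentile. The call rested on few reads: without treated library 2 the log2 fold change was 1.23 and the edgeR adjusted p 0.0614. The corrected call was lost without control 1 or 2, or treated library 2 or 3.

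CXCL2 (ENSG00000081041, chr4:74097035-74099293, minus strand), another CXCR2 ligand, had 42, 22 and 17 reads in the controls and 1, 20 and 42 in the treated libraries. The treated libraries thus ran from below every control to the level of the highest, at 0.0322 to 1.06 CPM. On the log2 scale the difference was -0.34 ± 0.71 (95% interval -1.82 to 1.14, edgeR adjusted p = 0.748), and its sign turned when control 1 (0.07) or treated library 1 (0.19) was left out. After the correction it was -0.088 ± 0.71 (edgeR adjusted p = 0.958). CXCL2 and CXCL3 share a run of 97 identical bases in their transcripts, and 4.62% of the 50-base windows of CXCL2 occur in CXCL3, so a small part of their reads could not be placed with certainty. Summed over CXCL1, CXCL2 and CXCL3 before testing, the log2 fold change was 0.77 with an edgeR adjusted p of 0.0906, so the rise of CXCL3 did not hold as a rise of the sum.

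CXCL1 (ENSG00000163739, chr4:73869393-73871242, plus strand) and CXCL5 (ENSG00000163735, chr4:73995642-73998779, minus strand), also CXCR2 ligands, had 0 reads in all 6 libraries. A count of 0 allows up to 3 reads, which is 0.0754 to 0.0966 CPM in these libraries and covers counting error only. Per length, this limit is 0.0582 to 0.0745 RPKM for CXCL1 and 0.0297 to 0.0380 RPKM for CXCL5. Among the ELR chemokines of this line, reads therefore came from CXCL8, with small amounts of CXCL2 and CXCL3. CXCL1 shares a run of 77 identical transcript bases with CXCL2 and of 55 with CXCL3, and 5.73% of its 50-base windows occur in CXCL2.

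CXCL16 (ENSG00000161921, chr17:4733526-4739922, minus strand) encodes a chemokine made as a membrane protein and released by ADAM10, and its receptor is CXCR6. Levels were 4.70, 6.27 and 7.32 CPM in the controls against 13.3, 11.5 and 13.7 CPM in the treated libraries. All treated libraries exceeded all controls by a wide margin. The mean moved from 6.10 ± 1.32 to 12.8 ± 1.18 CPM (SD, n = 3 each), a fold of 2.11. The log2 fold change was 1.07 ± 0.20 (95% interval 0.67 to 1.48, edgeR adjusted p = 0.000554), and 0.85 ± 0.17 after the correction (edgeR adjusted p = 0.00254). In its GC decile, with a median of 0.26, it stood at the 95.8th percentile. Its exons share 85 bases with MED11 on the opposite strand, which had 120 to 272 reads in the controls and 144 to 188 in the treated libraries.

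CCL20 (ENSG00000115009, chr2:227805739-227817564, plus strand), the ligand of CCR6, had 2 reads in control 1 and 0 in the other 5 libraries, at or under the limit that a count of 0 allows. No difference was detectable at this depth.

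**Figure D2:**
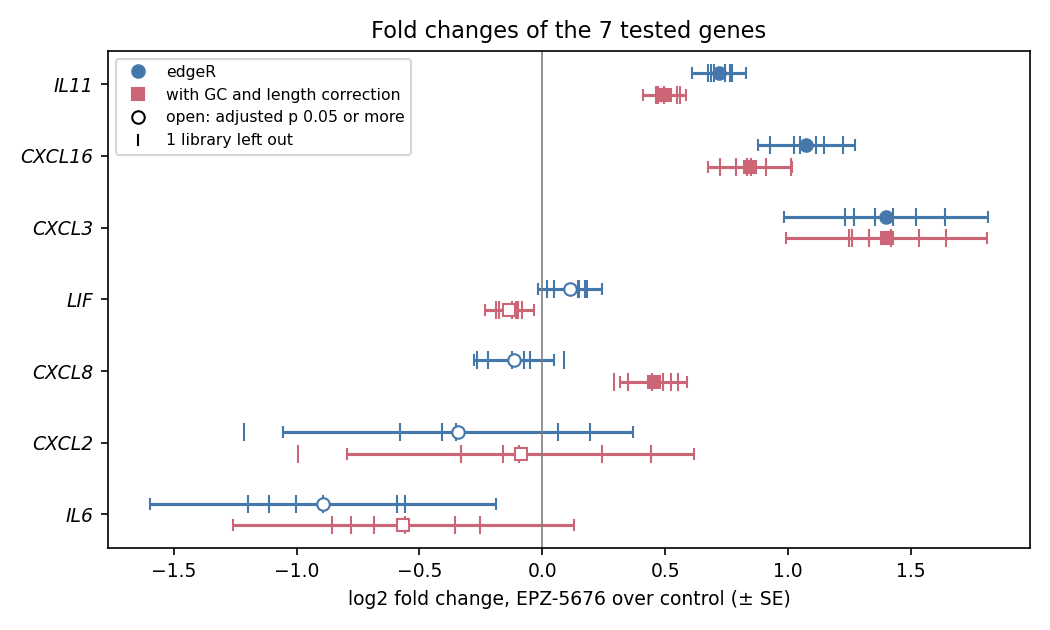
Log2 fold change, treated over control, of the 7 tested genes with its SE, as tested by edgeR and after correction for GC content and length; ticks show the value with 1 library left out, and open symbols have an adjusted p of 0.05 or more. IL11 (0.72 and 0.50), CXCL16 (1.07 and 0.85) and CXCL3 (1.40 and 1.40) lie above 0 both ways, while CXCL8 and LIF change sides.

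Compared per length, IL11 was the most abundant of the 10 genes in both groups, at 15.9 ± 0.861 RPKM in the controls and 26.2 ± 1.67 RPKM with the inhibitor (SD, n = 3 each). CXCL8 (11.6 ± 2.74 RPKM in controls) and LIF (8.83 ± 1.16 RPKM) came next, and their ranges over libraries overlapped in both groups. CXCL16 was lower, at 2.18 ± 0.471 RPKM in controls and 4.59 ± 0.422 RPKM with the inhibitor, and did not overlap with LIF above it or with the genes below it. CXCL2, CXCL3 and IL6 were all under 1 RPKM on average. Their control ranges of 0.304 to 0.704, 0.249 to 0.411 and 0.166 to 0.352 RPKM overlapped.

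Read as a whole, the 10 genes gave 4507, 4004 and 4032 reads in the controls and 4721, 5110 and 5762 in the treated libraries. IL11 took 36.9% to 38.5% of these reads in the controls and 44.5% to 49.2% in the treated libraries, with no overlap. IL11, LIF and CXCL8 together held 88.4% to 93.7% in every library. The summed level, at 108 to 115 CPM in the controls and 146 to 152 CPM in the treated libraries, thus came mostly from these 3 genes.

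**Figure D3:**
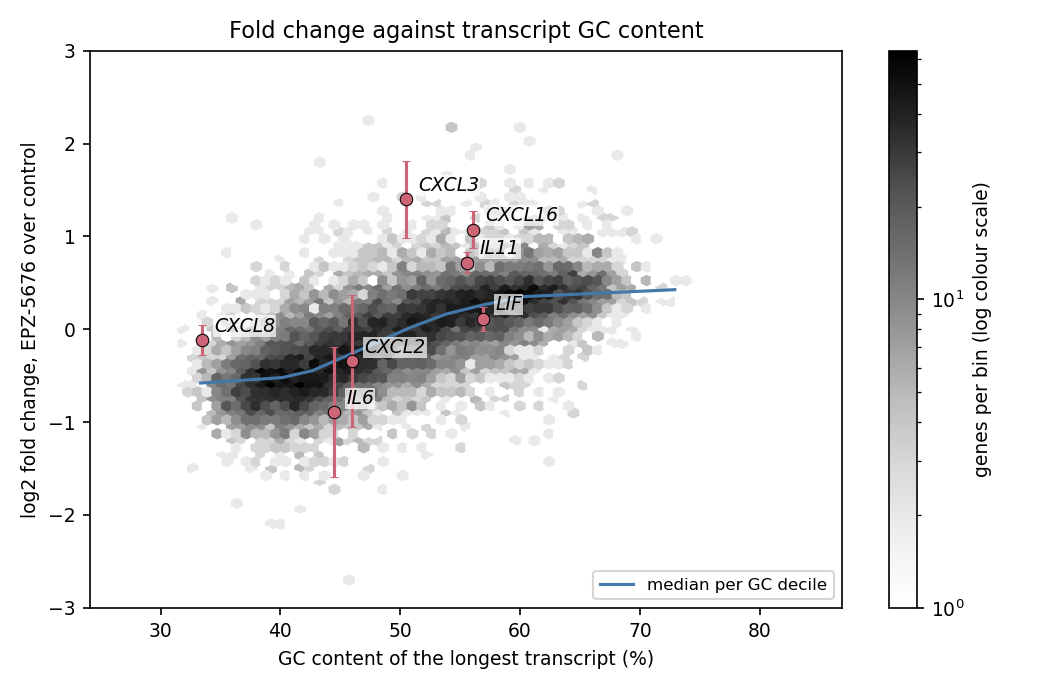
Log2 fold change against transcript GC content in percent for the tested genes (shading, number of genes), with the median of each GC decile and the 7 genes marked. The medians run from -0.58 in the lowest decile to 0.43 in the highest, and CXCL3, CXCL16, IL11 and CXCL8 lie above the median of their decile.

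Other ligands of the same families were mostly silent. Beside the counts of this list and those below stand 15% higher and 18.7% lower of all tested genes. After the correction these shares were 5.4% and 5.57%. No list was compared with them by a test. Of 37 other chemokine genes, 19 had 0 reads in all libraries, 3 were tested, and 0 passed in either direction. CCL5, a chemokine for T cells and monocytes, had 9.65 and 8.56 CPM in controls and treated cells, with a log2 fold change of -0.17 ± 0.20 (edgeR adjusted p = 0.533), and of -0.28 after the correction (edgeR adjusted p = 0.349). Among other IL-6 family genes, EBI3, a subunit of IL-27 and IL-35, had a log2 fold change of -0.33 ± 0.13 (edgeR adjusted p = 0.0503), and was called lower after the correction at -0.64 (edgeR adjusted p = 0.00021).

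The receptors of the ELR chemokines were not detectable outside control 2. CCR6, the CCL20 receptor, had 0 reads in all libraries, and CXCR6, the CXCL16 receptor, had 1 to 8 reads per library. Of 22 chemokine receptor genes 5 were tested, with 1 higher and 1 lower, beside 15% and 18.7% of all tested genes. The median log2 fold change of the 5 was 0.19. CXCR4, the receptor of CXCL12, was the most expressed, at 153 to 163 CPM in controls and 174 to 184 CPM with the inhibitor. The change on the log2 scale was 0.19 ± 0.10 (edgeR adjusted p = 0.134), and 0.53 after the correction, where it was called higher (edgeR adjusted p = 0.00014). The calls of CCR10 (0.64 ± 0.21, edgeR adjusted p = 0.0249) and CCR1 (-2.03 ± 0.75, edgeR adjusted p = 0.0419) were both lost with the correction. That of CCR10 was also lost without control 1 or treated 1, and that of CCR1 without control 2 or 3, or treated 1 or 2. CCR1 rested on few reads, 12, 34 and 46 in the controls and 4, 2 and 16 with the inhibitor, and the groups overlapped.

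On the receptor side of the IL-6 family, 7 of 8 genes were tested. Of these, 0 were higher and 3 lower, beside 15% and 18.7% of all tested genes, with a median log2 fold change of -0.30. LIFR, the LIF receptor, was at 18.3, 13.3 and 21.5 CPM in controls and 6.37, 11.2 and 10.7 CPM with the inhibitor, without overlap. edgeR put the log2 fold change at -0.90 ± 0.21 (edgeR adjusted p = 0.00286). OSMR (-0.30 ± 0.11, edgeR adjusted p = 0.0381) and IL6ST, which encodes gp130 (-0.46 ± 0.17, edgeR adjusted p = 0.0399), were also called lower. After the correction 0 of the 7 passed: LIFR was at -0.33 (edgeR adjusted p = 0.189), OSMR at -0.020 (edgeR adjusted p = 0.907) and IL6ST at 0.11 (edgeR adjusted p = 0.666). Both OSMR and IL6ST also lost their call when single libraries were left out, OSMR without control 3, treated 1 or treated 2, and IL6ST without control 1 or 3, or treated 1 or 3. The list then held 1 lower call without control 3 or treated 1. IL6R, the IL-6 receptor, had a log2 fold change of -0.27 ± 0.15 (edgeR adjusted p = 0.162), and of -0.33 after the correction (edgeR adjusted p = 0.0884).

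Downstream, all 14 genes of JAK-STAT3 signalling and its SOCS inhibitors were tested. As tested 2 were higher and 4 lower, beside 15% and 18.7% of all tested genes. After the correction 1 was higher and 2 lower, beside 5.4% and 5.57%. Without control 1 or treated library 1, 2 were lower as tested. JAK1, a kinase bound to gp130, was at 57.8 to 74.2 CPM in controls and 41.6 to 46.0 CPM with the inhibitor. Its log2 fold change was -0.58 ± 0.12 (edgeR adjusted p = 0.00105) and -0.35 after the correction (edgeR adjusted p = 0.0189), a corrected call lost without control 1 or treated library 2 or 3. The kinase TYK2 moved the other way as tested, at 0.49 ± 0.11 (edgeR adjusted p = 0.00284), but was not called after the correction (0.13, edgeR adjusted p = 0.364). STAT3 itself had a log2 fold change of -0.03 ± 0.10 (edgeR adjusted p = 0.861), and of -0.026 after the correction (edgeR adjusted p = 0.880). SOCS3, a feedback inhibitor of gp130 signalling and a STAT3 target, was at -0.17 ± 0.10 (edgeR adjusted p = 0.200), and was called lower after the correction at -0.52 (edgeR adjusted p = 0.00015). Of 15 STAT3 and acute-phase target genes 6 were tested, with 0 higher and 0 lower as tested, and a median log2 fold change of 0.06. After the correction 2 were lower, among them BCL3 at -0.42 (edgeR adjusted p = 0.0121), a call lost without control 3 or treated library 1. The other corrected call held in all 6 corrected fits with a library left out.

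All 14 genes of NF-κB subunits and inhibitors were tested, with 3 higher and 1 lower, beside 15% and 18.7% of all tested genes. After the correction these counts were 1 and 1, beside 5.4% and 5.57%. Without control 2, 5 were higher as tested. TNFAIP3 (A20), an NF-κB target that shuts the pathway off, was at 15.2, 15.5 and 18.6 CPM in controls and 7.85, 11.3 and 11.0 CPM with the inhibitor. The edgeR log2 fold change was -0.70 ± 0.18 (edgeR adjusted p = 0.00499), and -0.66 after the correction (edgeR adjusted p = 0.00606). NFKBIA, the inhibitor IκBα and also an NF-κB target, moved the other way, from 54.5 ± 5.62 to 73.8 ± 5.54 CPM (SD, n = 3 each). This gave a log2 fold change of 0.44 ± 0.11 (edgeR adjusted p = 0.00536), and 0.33 after the correction (edgeR adjusted p = 0.0156), where the call was lost without control 1, control 3 or treated library 1. RELA (0.44 ± 0.12, edgeR adjusted p = 0.00866) and NFKB2 (0.36 ± 0.10, edgeR adjusted p = 0.00913) were called higher as tested, but not after the correction (0.19 and -0.03).

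Upstream cytokines and receptors that feed NF-κB gave 6 higher and 2 lower of 14 tested, beside 15% and 18.7% of all tested genes. After the correction 2 were higher and 1 lower, beside 5.4% and 5.57%. IL1B, interleukin-1β, had 37, 32 and 34 reads in controls and 99, 87 and 79 with the inhibitor, without overlap. The change on the log2 scale was 1.47 ± 0.35 (edgeR adjusted p = 0.0036), and 1.73 after the correction (edgeR adjusted p = 0.0025). IL18, another cytokine of the interleukin-1 family, moved the other way, from 11.4 to 12.3 CPM in controls to 2.45 to 5.01 CPM with the inhibitor. edgeR put the log2 fold change at -1.51 ± 0.23 (edgeR adjusted p = 0.00015), and -1.0 after the correction (edgeR adjusted p = 0.00227). Both calls, and that of TNFAIP3, were made in all 23 alternative fits. IL1RAP, the shared interleukin-1 receptor subunit, was lower as tested (-0.81 ± 0.17, edgeR adjusted p = 0.00129) but not after the correction (-0.36, edgeR adjusted p = 0.0782).

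Among 11 AP-1 and C/EBP factors, all tested, 4 were higher and 1 lower, beside 15% and 18.7% of all tested genes. The median log2 fold change of the 11 was 0.22. After the correction 2 were higher and 2 lower, beside 5.4% and 5.57%, with a median of -0.02 for the 11. CEBPA was at 2.41, 3.46 and 3.91 CPM in controls and 8.02, 7.18 and 6.55 CPM with the inhibitor. Its log2 fold change was 1.15 ± 0.24 (edgeR adjusted p = 0.00137), and 0.69 after the correction (edgeR adjusted p = 0.0402), where the call held in 1 of the 6 fits with a library left out, that without control 3. FOS, an AP-1 subunit, was at 0.43 ± 0.11 (edgeR adjusted p = 0.00419), and 0.33 after the correction (edgeR adjusted p = 0.0145), where the call was lost without treated library 1 or 2. JUND (0.67 ± 0.12, edgeR adjusted p = 0.00042) and JUNB (0.44 ± 0.10, edgeR adjusted p = 0.00284) were called higher as tested, with log2 fold changes of 0.16 and -0.0028 after the correction.

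Factors that bind or degrade AU-rich mRNAs gave 1 higher and 3 lower of 12 tested, beside 15% and 18.7% of all tested genes. After the correction 2 were higher and 0 lower, beside 5.4% and 5.57%. As tested, only 1 was lower without control 1, control 3 or treated library 3, and 3 were higher without control 2. CNOT7, a deadenylase of the CCR4-NOT complex, was at -0.72 ± 0.14 (edgeR adjusted p = 0.00083) and at -0.15 after the correction, where it did not pass. ZC3H12A (Regnase-1), an endonuclease that cleaves IL6 mRNA, was called higher as tested at 0.44 ± 0.16 (edgeR adjusted p = 0.0367). That call was lost whichever single library was left out, and with the correction (0.06). Among 5 sheddases and proteases of chemokines, ADAM10, which releases CXCL16, was the 1 called lower, at -0.74 ± 0.22 (edgeR adjusted p = 0.0138). It was at -0.19 after the correction (edgeR adjusted p = 0.521), and the call was also lost without control 1 or 3, or treated 1, while without control 2 the list had 3 lower.

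The chromosome 4 neighbourhood of the ELR chemokines gave 4 tested genes of 10. As tested 0 were higher and 1 lower, beside 15% and 18.7% of all tested genes. After the correction 2 were higher and 0 lower, beside 5.4% and 5.57%. The epidermal growth factor family ligands AREG and EREG lie in this neighbourhood. AREG was at 0.34 ± 0.16 (edgeR adjusted p = 0.101) and called higher after the correction at 0.62 (edgeR adjusted p = 0.00348). EREG was at -0.09 ± 0.15 (edgeR adjusted p = 0.661) and 0.46 after the correction (edgeR adjusted p = 0.0202), so like CXCL8 it changed sign and call with the correction. Its corrected call was lost without control 1 or treated library 1 or 2. The 1 lower call, MTHFD2L, a folate enzyme gene (-0.72 ± 0.22, edgeR adjusted p = 0.0179), was lost with the correction (-0.13), and without control 1 or 3, or treated 2 or 3.

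Other secreted cytokines and growth factors gave 3 higher and 2 lower of 13 tested, beside 15% and 18.7% of all tested genes. After the correction 1 was higher and 2 lower, beside 5.4% and 5.57%. As tested, 1 was higher and 1 lower without control 1, treated library 1 or treated library 3. Without treated library 2, 1 was lower as tested. VEGFA, the endothelial growth factor, fell from 245 ± 3.72 to 197 ± 5.70 CPM (SD, n = 3 each), with a log2 fold change of -0.32 ± 0.09 (edgeR adjusted p = 0.0136), and of -0.47 after the correction (edgeR adjusted p = 0.00059). The uncorrected call was lost without treated library 3. TGFB1 was at 460, 716 and 632 CPM in controls and 1043, 856 and 935 CPM with the inhibitor. The edgeR log2 fold change was 0.65 ± 0.13 (edgeR adjusted p = 0.00109), and 0.23 after the correction (edgeR adjusted p = 0.0990).

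**Figure D4:**
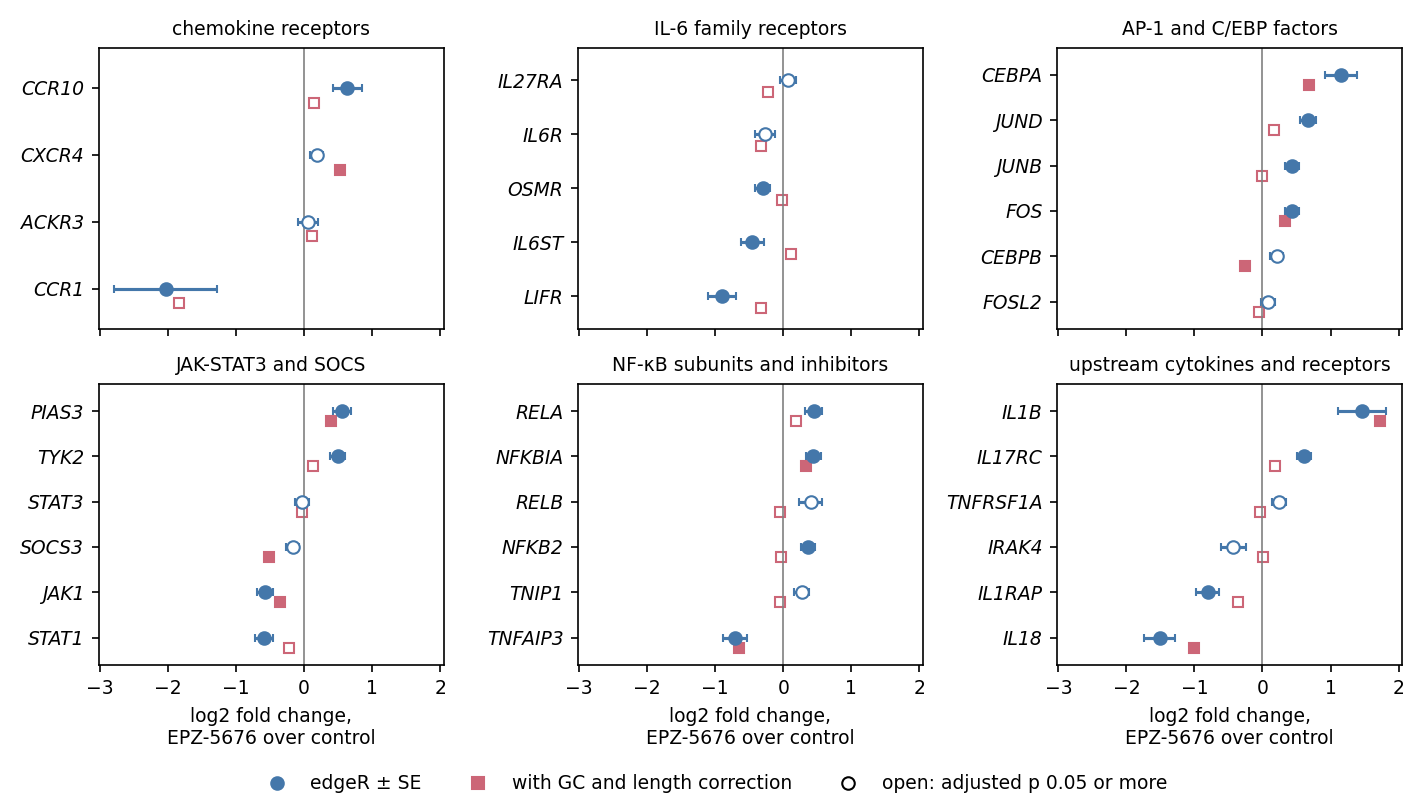
Log2 fold change, treated over control, of genes named by rule from 6 lists around these cytokines, with the SE of the edgeR test and the value after correction for GC content and length. The change of LIFR (-0.90 to -0.33) shrinks with the correction, while IL18, IL1B and TNFAIP3 stay called.

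Markers of other cell types that can make these cytokines were also measured. COL1A1 was at 44.3 and 61.6 CPM in controls and treated cells and DCN at 33.5 and 24.4 CPM, in the CPM range of IL11, LIF and CXCL8. Other fibroblast markers were well below that range: PDGFRB at 6.80 and 9.03 CPM, LUM at 3.74 and 1.82 CPM, and FAP at 3.24 and 2.13 CPM. Unlike RPKM, these values are not scaled for gene length, so the markers were not compared per length. The summed level of 9 fibroblast markers was 89.8 to 96.0 CPM in controls and 96.0 to 102 CPM with the inhibitor, with 1 marker called higher (COL1A1) and 2 lower (DCN and LUM) of 6 tested. Without treated library 1, 0 were lower, and without control 1 or treated library 3, 1 was. After the correction 0 were called: COL1A1 was at a log2 fold change of 0.12 (edgeR adjusted p = 0.465), DCN at 0.072 (edgeR adjusted p = 0.816) and LUM at -0.50 (edgeR adjusted p = 0.277). The sum of 9 leukocyte markers was 5.41 to 14.7 CPM in controls, highest in control 2, and 7.15 to 10.0 CPM with the inhibitor. The sum of 5 endothelial markers was 1.80 to 3.18 and 1.54 to 3.38 CPM, and KDR had 0 reads. The sum of 8 epithelial markers was 5365 to 6168 CPM in controls and 6549 to 8341 CPM with the inhibitor, so the ranges did not overlap. As tested, 2 of 6 markers were higher (KRT8 and KRT18) and the median log2 fold change was 0.21. Both calls were lost without control 3 or treated library 1, and KRT18's without control 1. After the correction 0 were called, with KRT8 at 0.13 (edgeR adjusted p = 0.419) and KRT18 at 0.100 (edgeR adjusted p = 0.491), and the median was -0.25. The part of these markers in the results for the chemokines and cytokines was not tested. In bulk RNA, a change in the share of cells that express a gene and a change in its level per cell cannot be told apart.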

How the data were processed

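The titles of the samples placed 6 libraries of SW1990 cells in 2 groups, 3 control and 3 treated with 5 µM EPZ-5676. Oligo(dT) beads selected the mRNA and dUTP marked the strand, per the labels' protocols. The submitters' processing notes name HISAT2 2.2.1 and GRCh38. The values deposited by the authors are raw read counts per gene, with no scaling. The sources used here do not state the counter, its strand setting or the annotation. Coordinates matched GENCODE 29 for all 58735 genes, and that release gave transcript GC content, length and 3′ UTRs.

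The main test was the robust, two-sided quasi-likelihood test of edgeR 4.0.16 (R 4.3.3) after filterByExpr by group (minimum count 10) and TMM scaling, run over all 15496 genes passing the filter, and p adjusted after Benjamini and Hochberg, at a threshold of 0.05. The SE is the log2 fold change divided by the square root of F. Totals of 33970420 to 39749648 reads and a common dispersion of 0.0301 set the precision. With 3 against 3 libraries, an exact permutation test of a single gene cannot go below 0.1, so none is given. The correction fitted splines of GC content and log2 length (5 degrees of freedom each), for 15487 genes. They were fitted to each library's log2 CPM (prior count 2) minus the gene's mean over all libraries. The fits, centred per gene, were entered as an offset. A treatment effect along GC content or length is removed with it. Code was tested on simulated data. Promoters came from RefSeq on GRCh38.p14.

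The 10 genes, the gene lists and the naming rule were chosen with earlier results of these data known. The 10 genes were named whatever their result, and of each list up to 4 called genes with the smallest p and up to 2 of the most expressed others. CXCR1, CXCR2, CXCR6, CCR6, MED11, AC073072.1 and marker genes were named outside that rule, after their values were seen. Some genes and a gene list's counts are not reported here. In all, 23 alternatives were run, among them other scalings and filters, DESeq2 1.42.0, limma-voom (limma 3.58.1), a replicate block, the correction and each library left out.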

Additional observations from a re-analysis of the deposited data

How the results depend on the processing

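IL11 and CXCL16 were higher and past the threshold in all 23 alternatives, at log2 fold changes of 0.46 to 0.77 and 0.73 to 1.23. CXCL3 was past it in 16 of 22, at 1.23 to 1.64. It missed without treated library 2 (edgeR adjusted p = 0.0614), with the correction and a replicate block together (0.0523), and with the correction without control 1 (0.0945), control 2 (0.0654), treated library 2 (0.122) or treated library 3 (0.0698). IL6 stayed below 0 in 22 alternatives (-1.20 to -0.25) and never passed. CXCL2 ran from -1.21 to 0.19 with 1 library left out and was above 0 without control 1 (0.07) or treated library 1 (0.19). Corrected, it was above 0 without control 1 (0.24) or treated library 1 (0.44). CXCL8 ran from -0.26 to 0.088 with 1 library left out, the 0.088 being without control 1. It was 0.45 with the correction and 0.47 with the correction and a replicate block (edgeR adjusted p = 0.0673). Corrected with 1 library left out it was 0.55, 0.49, 0.29, 0.45, 0.52 and 0.35 (controls 1 to 3, then treated 1 to 3). LIF was -0.13 with the correction and -0.13 with the correction and a replicate block, and in the same order -0.19, -0.12, -0.082, -0.18, -0.10 and -0.10. The correction takes out the log2 trend fitted to each library. For CXCL8 this trend was 0.15 to 0.40 in the controls and -0.41 to -0.19 in the treated libraries. For LIF it was -0.23 to -0.06 and 0.10 to 0.16, so taking it out turned both signs. What lies behind the trend was not tested.

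Among the 10 genes, 2 to 4 were called higher in every alternative and 0 lower. Over all genes, 863 were lower and 836 higher with the correction, 685 and 688 with the correction and a replicate block, 1753 to 3167 and 1350 to 2780 with 1 library left out, and, corrected with controls 1 to 3 and then treated 1 to 3 left out, 566, 815, 705, 512, 559 and 540 lower and 587, 857, 522, 397, 609 and 600 higher. The replicate block alone gave 2219 lower and 1677 higher, with the same count of 3 of the 10 genes higher. Deviations of libraries with the same number correlated at -0.11, -0.09 and 0.05, so the numbers were not taken to pair them. Counts of calls in the lists moved most with the correction, by over 1.5 times in 22 of 34. Without it, the IL-6 receptor list had 1 lower with the block, RLE scaling, or without control 3 or treated library 1, and NF-κB had 5 higher with RLE, DESeq2 or without control 2. CXCL2, CXCL3 and IL6 rested on 1 to 79 reads per library.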
